A study of Mus musculus with 17 samples.

Results

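ATP-binding cassette (ABC) transporters are proteins that use ATP to move drugs, lipids, sterols, bile salts and other molecules across membranes. Members were the rows of the colon count table whose gene symbol begins with Abc, a subfamily letter from a to g and a digit, which gave 50 of 23719 rows. By subfamily these were 16 Abca, 10 Abcb, 10 Abcc, 4 Abcd, 1 Abce, 3 Abcf and 6 Abcg genes. Of the 50, 41 passed the filter on low counts and were tested, among 14146 tested genes in all.

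RNA-seq counts came from the colons of 17 male C57BL/6 mice aged 32 to 34 weeks. The 8 GWI (Gulf War illness) mice drank water with pyridostigmine bromide (PB), a cholinesterase inhibitor, at 2 mg/kg for 7 days, and PB-free water for 21 days after that. The 9 Control mice drank water without PB, and tissue of both groups was taken at day 30. Total counts per mouse ran from 16744096 to 20741212 in Control and from 16293537 to 18389686 in GWI. Levels are given as CPM (counts per 1e6 counts) on library sizes scaled by TMM, a method that balances the libraries over most genes. The model covers males and this agent alone.

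In the intestine, ABC pumps on the luminal face of epithelial cells return drugs and plant sterols to the gut lumen, while others on the opposite face pass bile acids and conjugates toward the blood. The pumps are largely under the control of nuclear receptors that sense foreign compounds, bile acids and oxysterols. Other members work inside the cell, in peroxisomes, lysosomes and mitochondria, and a few have no transport role at all.

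The family took a larger share of the RNA in GWI colons. Its summed level ran from 2385 to 3381 CPM in Control, with a median of 2718, and from 2882 to 4826 CPM in GWI, with a median of 3828. In 7 of 8 GWI mice the sum was above that of every Control mouse, GWI replicate 5 being the exception. A single gene, Abcb1a, made up 31.2% to 45.6% of the family's counts in Control and 35.8% to 48.6% in GWI. Per kilobase of merged exon length, Abcb1a stood at 199 ± 39.2 CPM in Control and 327 ± 79.5 CPM in GWI (SD, n = 9 and 8). The next levels per kilobase in Control were Abcc3 at 47.6 ± 20.0 CPM, Abcd3 at 41.3 ± 4.31 CPM and Abcf1 at 24.8 ± 4.71 CPM. Abcc3 and Abcd3 did not differ beyond their spread, whereas Abcb1a stood clear of both.

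Members changed in both directions, more often upward. By edgeR's quasi-likelihood test, 12 of the 41 tested members were higher in GWI, 6 were lower and 23 did not pass an adjusted p of 0.05. Those called were 43.9% of the tested members, beside 26.8% of all tested genes. The higher ones were 29.3% of members against 13.4% of all genes, and the lower ones 14.6% against 13.5%, so the lower share was near the background. The median log2 fold change (GWI over Control) was 0.24 for members and -0.06 for all tested genes, and the median absolute log2 fold change was 0.41 against 0.29. The split between directions depended on scaling. With upper-quartile factors, 5 members were higher and 6 lower, and among all genes 1214 were higher and 2992 lower, where TMM gave 1889 and 1903. Members called were then 26.8% (12.2% higher, 14.6% lower) and all genes called 29.7% (8.58% higher, 21.2% lower). With library size alone, 7 members were higher and 6 lower (31.7%), and 1530 and 1851 of all genes (23.9%). The larger share called in either direction was thus not seen with upper-quartile factors. There the share of members called higher, 5 genes, was also near that of all genes, and the difference was not tested. In 1 member, Abca3, the CPM ranges of the groups did not overlap, which is 2.44% of tested members beside 2.35% of all tested genes.

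**Figure D1:**
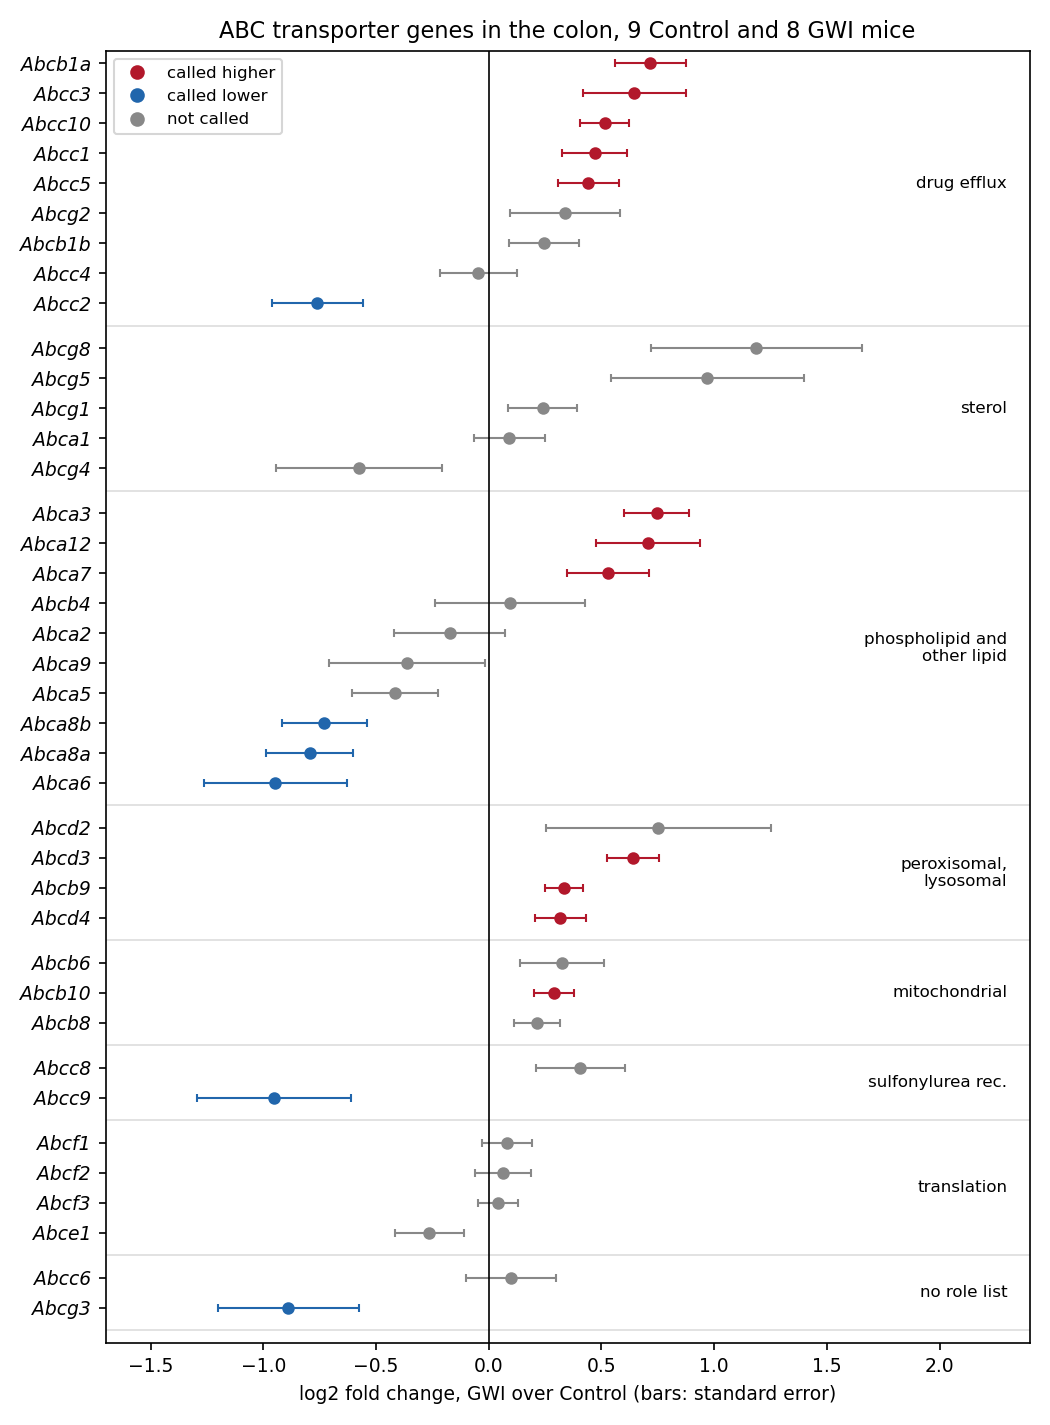
Log2 fold change (GWI over Control) of tested ABC genes, ordered by role and then by size, with bars of 1 standard error. Red points were called higher (12 genes), blue points lower (6 genes) and grey points were not called; 3 grey genes of the translation group, Abcf1, Abcf2 and Abcf3, changed sign with upper-quartile scaling.

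RNA of cell type markers also differed between the groups, and in bulk tissue fewer cells of a type and less RNA per cell cannot be told apart. Of 10 smooth muscle markers, 7 were lower in GWI and 0 higher, with a summed level of 3690 to 23923 CPM in Control and 3658 to 11832 CPM in GWI, Myh11 being the most abundant. Of 11 colon epithelium markers, 5 were higher and 0 lower, with a summed level of 27366 to 45187 CPM in Control and 30484 to 48114 CPM in GWI. By mean level Car1 was the most abundant in Control, and in GWI Muc2 (11981 CPM) stood just above Car1 (11963 CPM). Of 6 endothelium markers, 2 were lower and 0 higher, with a summed level of 38.4 to 156 CPM in Control and 42.8 to 88.8 CPM in GWI, Pecam1 being the most abundant. Control replicate 9 had the lowest muscle sum and the highest epithelium sum of the Control mice. None of the marker genes of these 3 lists was at 0 in any mouse. Their part in the result was not tested. As a measured value, adding a muscle against epithelium score to the fit gave 9 higher and 2 lower members. Of these, 4 were among the 18 called without it: Abca3, Abca7, Abcc1 and Abcd3. The score ran from -0.866 to 1.77 in Control and from -1.46 to 0.247 in GWI. Only Control replicates 8 and 9 lay within the GWI range, so score and condition can hardly be told apart in this fit. The standard error of Abcb1a rose from 0.16 to 0.23 with the score, while that of Abca8a fell from 0.19 to 0.18. Members called in that fit were 26.8% of those tested, beside 29.1% of all genes (1816 higher and 2303 lower), so the larger share in either direction was not seen there. By direction, 22.0% of members were higher beside 12.8% of all genes, and 4.88% lower beside 16.3%. Among the other 7 were Abca2, Abcc8, Abcf1 and Abcg1, which were higher, and Abce1, which was lower.

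Among the 9 drug efflux pumps, all of which were tested, 5 were higher in GWI, 1 was lower and 3 were not called, where 13.4% of all tested genes were higher and 13.5% lower. Their median log2 fold change was 0.44, beside -0.06 over all tested genes. These counts depended on the fit. They were 2 higher and 1 lower with upper-quartile factors (29.7% of all genes called), 3 and 1 with library size alone (23.9%), and 1 (Abcc1) and 0 with the muscle against epithelium score (29.1%). Limma-voom with sample quality weights, which called 57.2% of all genes, gave 7 and 1, adding Abcb1b and Abcg2. The 5 were Abcb1a, Abcc10, Abcc5, Abcc1 and Abcc3, and the 1 lower pump was Abcc2.

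Abcb1a encodes P-glycoprotein, the broad-range drug pump of the intestinal lining. It ran from 847 to 1542 CPM in Control, with a median of 1040, and from 1031 to 2319 CPM in GWI, with a median of 1796. In 6 of 8 GWI mice the level was above that of every Control mouse, while GWI replicates 4 and 5 lay among the Control mice. The log2 fold change was 0.72 (SE 0.16, adjusted p = 0.00471), and no single mouse left out ended the call. With the muscle against epithelium score in the fit it was 0.51 (adjusted p = 0.0994), the highest of the adjusted p-values over the alternatives, which began at 0.000216. Within groups, Abcb1a and the summed epithelium markers gave a Pearson r of 0.537 in Control (exact permutation p = 0.136, adjusted 0.136) and 0.764 in GWI (exact permutation p = 0.0230, adjusted 0.0307). Spearman's rho was 0.633 in Control (exact permutation p = 0.0760, adjusted 0.0760) and 0.810 in GWI (exact permutation p = 0.0218, adjusted 0.0348). Without the 2 mice farthest from the median of the epithelium sum, r was 0.719 in Control and 0.692 in GWI. The sum gives most weight to abundant markers. Car1 alone ran from 1988 to 29280 CPM in Control and from 3865 to 18818 CPM in GWI. The adjustment ran over 8 two-sided relations on log2 values, 4 gene or marker pairs in each group.

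Abcb1b, the second mouse gene for P-glycoprotein, was far lower at 0.439 CPM per kilobase in Control, against 199 for Abcb1a. Its level was 2.70 to 4.92 CPM in Control, with a median of 3.23, and 2.90 to 5.71 CPM in GWI, with a median of 4.04. The ranges overlapped almost fully, and the log2 fold change was 0.25 (SE 0.15, adjusted p = 0.238). Sample quality weights in limma-voom gave 0.41 and a call (adjusted p = 0.00813, the lowest of the alternatives, the highest being 0.458). The pair are close copies. Of the 150-base windows of their transcripts, 295 are shared, which is 5.54% for Abcb1a and 3.63% for Abcb1b, so part of the Abcb1b count is uncertain. The genes lie side by side on chromosome 5 with Abcb4, the phosphatidylcholine pump of bile, whose log2 fold change was 0.10 (SE 0.33, adjusted p = 0.847). In the GRCm38 annotation they span chr5:8660077-8748575, chr5:8798147-8866315 and chr5:8893717-8959231, all on the plus strand.

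Abcg2 encodes the breast cancer resistance protein, which exports drugs and urate at the luminal face. It ran from 66.6 to 280 CPM in Control, with a median of 107, and from 101 to 205 CPM in GWI, with a median of 148. The highest value of all 17 mice was that of Control replicate 9. The log2 fold change was 0.34 (SE 0.24, adjusted p = 0.302) and thus not called, but without Control replicate 9 it was 0.60 (adjusted p = 0.0162). Over the alternatives its adjusted p ran from 0.000527 with sample quality weights to 0.649 with the muscle against epithelium score, where the log2 fold change turned to -0.17.

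The remaining efflux pumps belong to the Abcc subfamily, the multidrug resistance proteins, which move glutathione, glucuronide and sulfate conjugates. Abcc3 sits on the blood-facing membrane of the enterocyte and carries bile acids and glucuronides. It ran from 129 to 439 CPM in Control, with a median of 253, and from 322 to 570 CPM in GWI, with a median of 404. Control mice spread widely and 4 of 9 lay within the GWI range. Abcc3 rose by a log2 fold change of 0.65 (SE 0.23, adjusted p = 0.0433). This call was lost without any 1 of 10 of the 17 mice, with adjusted p up to 0.0897 without GWI replicate 7. It was also lost with upper-quartile factors (adjusted p = 0.0736), and its adjusted p over the alternatives ran from 0.0153 to 0.112. Its log2 fold change with the muscle against epithelium score was 0.88 (adjusted p = 0.0817).

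Abcc2 pumps conjugates across the luminal membrane. It ran from 5.16 to 13.0 CPM in Control, with a median of 9.61, and from 3.90 to 7.68 CPM in GWI, with a median of 5.20. The ranges overlapped, with 6 of 9 Control mice above every GWI mouse. Abcc2 fell by 0.76 on the log2 scale (SE 0.20, adjusted p = 0.0123), opposite in direction to Abcc3. The call held without each mouse in turn and ended with the muscle against epithelium score (log2 fold change -0.46, adjusted p = 0.253, the highest of the alternatives, the lowest being 0.000145).

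Abcc10, which transports taxanes and other hydrophobic drugs, had the smallest p of the pumps. It ran from 13.4 to 23.5 CPM in Control, with a median of 16.7, and from 21.7 to 30.5 CPM in GWI, with a median of 24.6. In GWI, 6 of 8 mice lay above every Control mouse, and 8 of 9 Control mice lay below every GWI mouse, the exception being Control replicate 9. Its log2 fold change was 0.51 (SE 0.11, adjusted p = 0.00355), and no single mouse left out ended the call. With the muscle against epithelium score in the fit it was 0.28 and not called (adjusted p = 0.0877, the highest of the alternatives, the lowest being 4.86e-06). Abcc10 shares genomic positions with exons of Dlk2 on the other strand, and reads of the pair could not be separated if strand was not used in counting.

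Abcc1 and Abcc5 export conjugates and cyclic nucleotides from many cell types. Abcc1 ran from 26.1 to 55.7 CPM in Control, with a median of 40.2, and from 43.9 to 73.6 CPM in GWI, with a median of 56.6 (log2 fold change 0.47, SE 0.15, adjusted p = 0.0241). Abcc5 ran from 28.7 to 48.4 CPM in Control, with a median of 38.7, and from 36.8 to 70.0 CPM in GWI, with a median of 52.0 (log2 fold change 0.44, SE 0.14, adjusted p = 0.0238). The groups overlapped for both genes. Abcc1 was not called without GWI replicate 2 (adjusted p = 0.0524), nor was Abcc5 without GWI replicate 2 (0.0509) or GWI replicate 7 (0.0577). With upper-quartile factors neither was called (adjusted p = 0.0544 for Abcc1 and 0.0531 for Abcc5). With the score the adjusted p was 0.0194 for Abcc1 and 0.237 for Abcc5, and the alternatives ran from 0.00168 to 0.0544 and from 0.00157 to 0.237. Abcc4, which exports cyclic nucleotides and bile acids, ran from 5.92 to 15.1 CPM in Control, with a median of 9.92, and from 8.09 to 14.2 CPM in GWI, with a median of 9.71. Its groups lay on top of each other, with a log2 fold change of -0.05 (SE 0.17, adjusted p = 0.857).

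**Figure D2:**
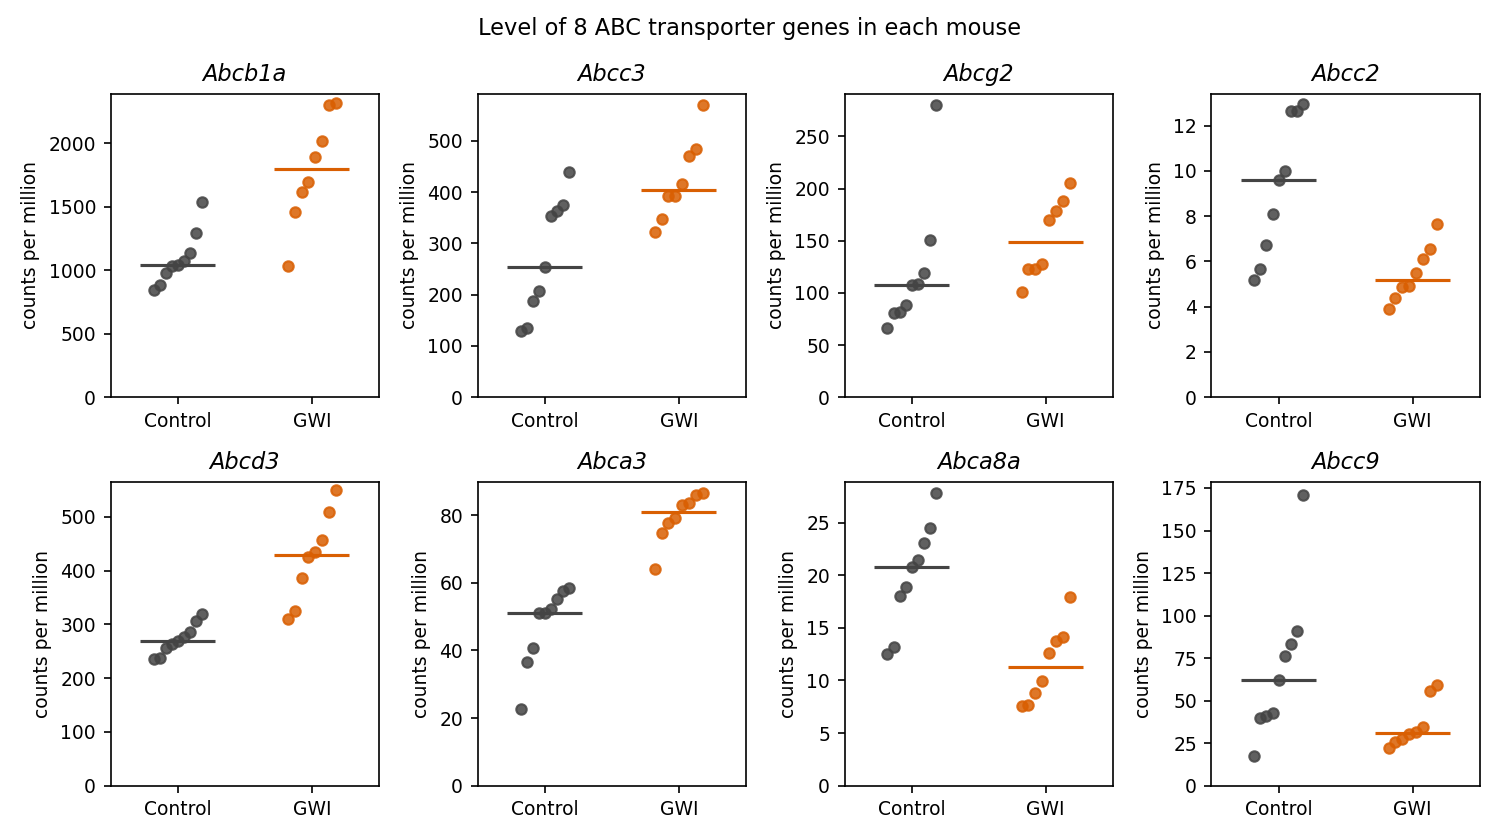
CPM of 8 ABC genes in each mouse, with a line at the median of each group (9 Control and 8 GWI mice, linear axes from 0). Abca3 is the gene whose groups do not overlap, Abcg2 has its highest value, 280 CPM, in a Control mouse, and Abcc2, Abca8a and Abcc9 were called lower in GWI.

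Sterol transporters gave calls in some fits only. By the edgeR test without a covariate, 0 of 5 passed an adjusted p of 0.05, and 2, Abcg5 and Abcg8, had an unadjusted p under 0.05. The DESeq2 Wald test called 1 of them, Abcg8, limma-voom without sample weights called Abcg5 and Abcg8, and limma-voom with sample quality weights called these 2 higher and Abcg4 lower. The edgeR fit with the muscle against epithelium score called 1, Abcg1, higher. The median log2 fold change of the 5 was 0.24.

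Abcg5 and Abcg8 form a heterodimer that pumps cholesterol and plant sterols into the gut lumen. Abcg8 ran from 0.569 to 13.0 CPM in Control, with a median of 2.17, and from 4.67 to 16.4 CPM in GWI, with a median of 9.27. Abcg5 ran from 1.39 to 24.5 CPM in Control, with a median of 5.19, and from 7.50 to 26.9 CPM in GWI, with a median of 15.2. For each gene, 6 of 9 Control mice lay below every GWI mouse, while Control replicates 2, 6 and 7 lay within the GWI range, replicate 2 near its lower end. The log2 fold changes were 1.19 for Abcg8 (SE 0.47, adjusted p = 0.0655) and 0.97 for Abcg5 (SE 0.43, adjusted p = 0.0970).

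Control replicates 6 and 7 also stood apart in some, not all, RNAs of the small intestine, where the sterol heterodimer is abundant. Defa24, a Paneth cell defensin, was at 60.4 and 120 CPM in these 2 mice and at most 0.623 CPM in the other 15. Fabp6, the ileal bile acid binding protein, was at 119 and 314 CPM, against at most 6.90 CPM in the rest. Apoa1 (28.7 and 133 CPM, at most 1.66 elsewhere), Mttp (14.5 and 37.8 CPM, at most 6.37) and the sterol importer Npc1l1 (10.5 and 14.1 CPM, at most 6.28) were also highest in them. Alpi (28.3 and 18.4 CPM) and Fabp1 (0.177 and 0.938 CPM) did not set them apart, nor did Sis in replicate 6 (51.2 CPM, against 82.7 CPM in Control replicate 8). The summed level of the 7 small intestine markers ran from 46.2 to 334 CPM in Control and from 65.8 to 106 CPM in GWI. Sis was the most abundant in Control and Alpi in GWI. Of the 3 markers tested, 1 (Alpi) was higher and 0 lower, and Apoa4, Apoc3 and Lct were near or at 0 in most mice of both groups. With Control replicates 6 and 7 left out, a choice made after their values were seen, the log2 fold change was 2.10 for Abcg8 (adjusted p = 0.00293) and 1.72 for Abcg5 (adjusted p = 0.00508). Without Control replicate 7 alone both were also called, at 1.64 (adjusted p = 0.0118) and 1.40 (adjusted p = 0.0136). Without Control replicate 6 alone only Abcg8 was called, at 1.40 (adjusted p = 0.0414). Across the alternatives the adjusted p was from 0.000201 to 0.130 for Abcg8 and from 0.000657 to 0.214 for Abcg5.

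Levels of the heterodimer genes followed each other from mouse to mouse. On log2 values, Pearson's r was 0.958 in Control (exact permutation p = 0.000149, adjusted 0.000397) and 0.997 in GWI (exact permutation p = 2.48e-05, the smallest that 8 mice can give, adjusted 0.000198). Spearman's rho was 0.867 in Control (exact permutation p = 0.00451, adjusted 0.0120) and 1 in GWI (exact permutation p = 4.96e-05, again the smallest possible, adjusted 0.000397). Without the 2 mice farthest from the median of Abcg5, r was 0.864 in Control and 0.989 in GWI. The ratio of Abcg8 to Abcg5 counts ran from 0.320 to 0.722 in Control, with a median of 0.494. In GWI it ran from 0.555 to 0.629, with a median of 0.616. The ratios of the GWI mice lay inside the Control range but above those of most Control mice, and the difference was not tested. On opposite strands, 82 exonic bases lie in both genes, 3.02% of the Abcg5 exons and 2.19% of the Abcg8 exons. The part of reads from these bases in the link between the 2 genes was not tested.

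Transcripts of Abcg5 and Abcg8 are read in opposite directions from a short stretch of chromosome 17, shown here because the 2 genes move together. The transcript Abcg5-201 (minus strand) starts at 84683011 and Abcg8-201 (plus strand) at 84683121, with 109 bases between them. Another annotated transcript of Abcg8 begins farther back, the gene's span being chr17:84676302-84700333, and its first exon overlaps Abcg5. The window chr17:84682871-84683170 (RefSeq, GRCm38.p6, plus strand) holds 250 bases before and 50 after the Abcg8 start. It includes the first bases of each transcript, and capitals mark the bases between the starts:
Abcg8 promoter: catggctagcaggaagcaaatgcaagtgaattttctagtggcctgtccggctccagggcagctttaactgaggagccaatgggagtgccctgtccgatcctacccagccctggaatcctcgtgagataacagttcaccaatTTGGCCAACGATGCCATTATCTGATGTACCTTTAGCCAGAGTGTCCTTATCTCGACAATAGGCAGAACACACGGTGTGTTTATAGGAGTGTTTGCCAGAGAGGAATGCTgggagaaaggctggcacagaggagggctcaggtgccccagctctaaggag

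Motifs were searched on both strands of this window and of all promoter windows of the same length. The nuclear receptor half-site AGGTCA had 0 matches in the printed window and is in 16.3% of all 32851 windows and 15.6% of the 45 windows of members, which cover 38 of the 50 genes. The antioxidant response core TGACNNNGC had 0 matches here (12.4% of all windows, 15.6% of members), as had the Ah receptor core GCGTG (32.4% and 35.6%), which is in the other promoter window of Abcg8. The GATA motif AGATAA, added after the window had been read, had 3 matches, of which the ones on the minus strand at positions 158 and 188 of the window lie in the capitals. AGATAA is in 11.2% of all windows and 13.3% of member windows. A match is a description of the letters and not a bound site.

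The other sterol transporters hand cholesterol to lipoproteins or work in neurons. Abca1, which loads cholesterol onto apolipoprotein A-I, ran from 14.5 to 31.6 CPM in Control, with a median of 21.8, and from 17.4 to 33.6 CPM in GWI, with a median of 23.8 (log2 fold change 0.09, SE 0.16, adjusted p = 0.682). Abcg1, which passes cholesterol to high density lipoprotein, ran from 3.09 to 4.46 CPM in Control, with a median of 3.85, and from 2.94 to 5.93 CPM in GWI, with a median of 4.56 (log2 fold change 0.24, SE 0.15, adjusted p = 0.248). Abcg1 with the muscle against epithelium score was at 0.55 (adjusted p = 0.0352, the lowest of the alternatives, the highest being 0.912). The groups overlapped for both genes. Abcg4, a neuronal relative of Abcg1, ran from 0.697 to 4.23 CPM in Control, with a median of 3.32, and from 0.849 to 3.03 CPM in GWI, with a median of 1.87. In 5 of 9 Control mice Abcg4 was above every GWI mouse, and Control replicates 7, 8 and 9 were low. Its log2 fold change was -0.58 (SE 0.37, adjusted p = 0.244), and with the muscle against epithelium score it turned to 0.73 (adjusted p = 0.173, where the alternatives ran from 0.00581 to 0.378).

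**Figure D3:**
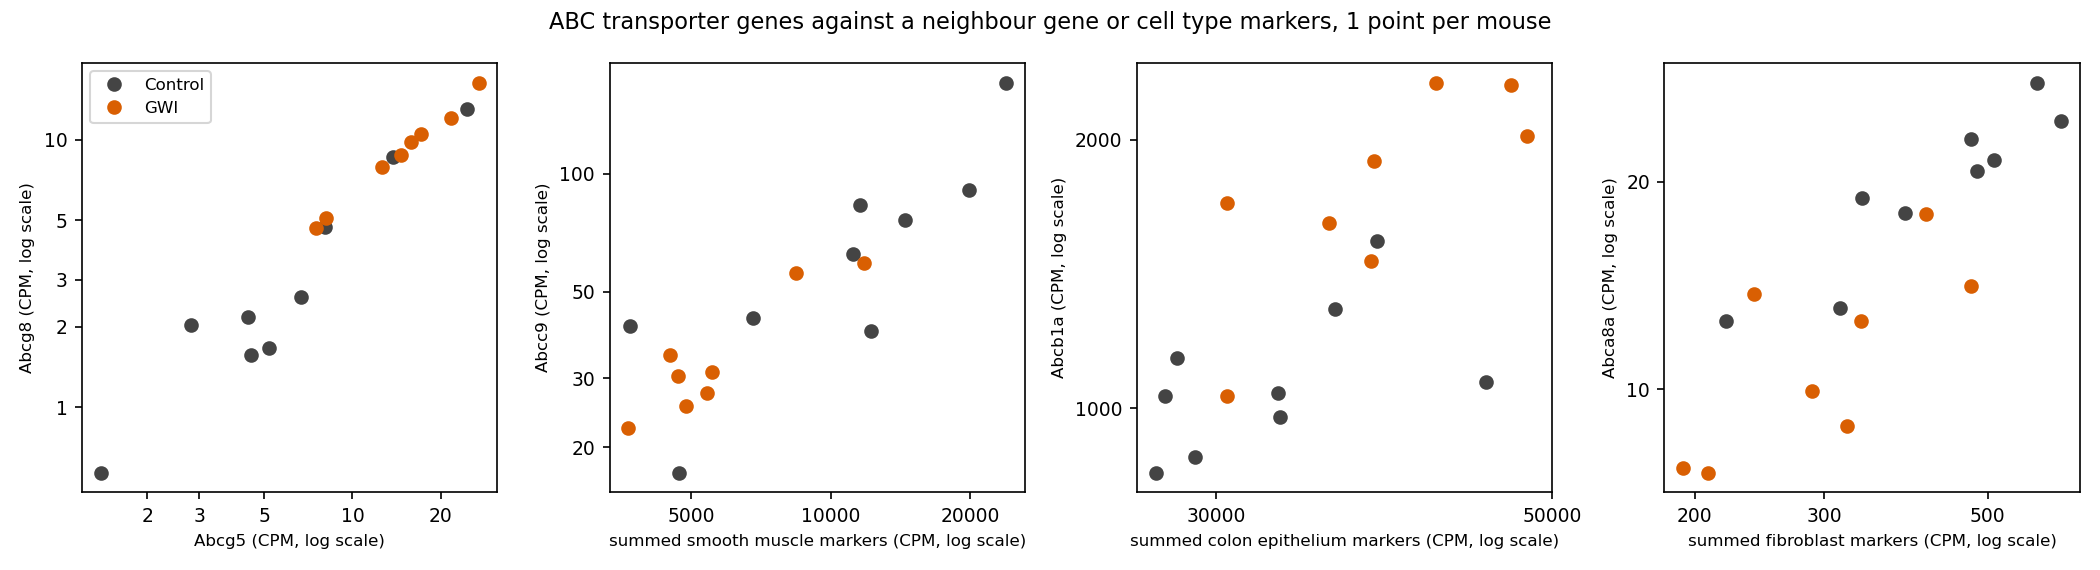
Levels in each mouse on log axes, in CPM (9 Control and 8 GWI mice, 1 point per mouse): Abcg8 against Abcg5, and Abcc9, Abcb1a and Abca8a against summed markers of smooth muscle, colon epithelium and fibroblasts. Abcg5 and Abcg8 lie along 1 line in both groups (Pearson r 0.958 in Control), and by Pearson's r over all mice the other panels show looser relations. In Control, Spearman's rho was higher for Abca8a and the fibroblast sum (0.917) than for Abcg5 and Abcg8 (0.867).

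Liver X receptors (LXR) switch on Abca1, Abcg1, Abcg5 and Abcg8 when oxysterols accumulate. Of 10 genes of the LXR pathway, 4 were higher in GWI and 0 lower, beside 13.4% and 13.5% of all tested genes. Their median log2 fold change was 0.18. With upper-quartile factors 2 were higher and 1, the receptor Nr1h3, lower, beside 8.58% and 21.2% of all genes. Limma-voom with sample quality weights called 5 higher and 2 lower, beside 27.6% and 29.5%. Nr1h3 had a log2 fold change of -0.23 (SE 0.10, adjusted p = 0.102). Lpcat3, an enzyme that remodels phospholipids, ran from 55.1 to 82.5 CPM in Control, with a median of 70.5, and from 102 to 129 CPM in GWI, with a median of 119. Its groups did not overlap, and the log2 fold change was 0.69 (SE 0.08, adjusted p = 0.000183). The other higher genes were the receptor Nr1h2 (log2 fold change 0.28, adjusted p = 0.0113), its partner Rxra (0.44, 0.0120) and the lipogenic factor Srebf1 (0.54, 0.0260). Calls of Nr1h2 and Srebf1 ended with upper-quartile factors and with library size alone (adjusted p up to 0.0659 and 0.0760), and that of Srebf1 also without Control replicates 6 and 7 (0.0767).

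Of 10 tested partners in the uptake and handling of sterols and bile acids, 1 was higher and 1 lower. Both counts were near the background, 13.4% and 13.5% of all tested genes. Scarb1, the high density lipoprotein receptor, rose by a log2 fold change of 0.40 (SE 0.12, adjusted p = 0.0214; up to 0.0733 over the alternatives). Fabp6 had a log2 fold change of -4.40 (SE 1.10, adjusted p = 0.00880), and without Control replicates 6 and 7 it was -0.96 (adjusted p = 0.0814). Its adjusted p over the alternatives ran from 0.00240 to 0.132.

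Of 9 tested nuclear receptors and partners for foreign compounds and bile acids, which control many efflux pumps, 4 were higher in GWI and 0 lower, beside the same shares of all genes. The median log2 fold change was 0.21. With upper-quartile factors 2 were higher, Nr1i2 and Vdr, beside 8.58% of all genes. The same 2 were higher with the muscle against epithelium score, beside 12.8%. Limma-voom with sample quality weights called 6 higher, beside 27.6%, and none of these fits called any lower. Vdr, the vitamin D receptor, ran from 227 to 348 CPM in Control, with a median of 276, and from 350 to 466 CPM in GWI, with a median of 404, with no overlap (log2 fold change 0.53, SE 0.10, adjusted p = 0.00216). Nr1i2, the pregnane X receptor that induces Abcb1a, ran from 49.4 to 78.5 CPM in Control, with a median of 64.4, and from 76.2 to 101 CPM in GWI, with a median of 86.8 (log2 fold change 0.48, SE 0.09, adjusted p = 0.00198). Only the edges of the Nr1i2 ranges overlapped. Arnt, the partner of the Ah receptor, had a log2 fold change of 0.21 (adjusted p = 0.0239; 0.0523 without GWI replicate 6 and 0.170 with upper-quartile factors, the highest of the alternatives), and Hnf4a, a regulator of epithelial genes, one of 0.42 (adjusted p = 0.0430). The call of Hnf4a was lost without any 1 of 14 of the 17 mice, with adjusted p up to 0.0824 without GWI replicate 4, and it was 0.292 with the muscle against epithelium score.

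Among transporters of phospholipids, bile salts and other lipids, 10 of 13 were tested, with 3 higher and 3 lower, where 13.4% of all tested genes were higher and 13.5% lower. The split was 3 and 0 with the muscle against epithelium score, beside 12.8% and 16.3% of all genes. It was 3 and 6 with limma-voom and sample quality weights, which added Abca2, Abca5 and Abca9. That fit called 27.6% of all genes higher and 29.5% lower. The median log2 fold change was -0.27. Abca3 moves surfactant phospholipids into lamellar bodies of the lung and is also made in other tissues. It ran from 22.8 to 58.4 CPM in Control, with a median of 51.1, and from 64.1 to 86.6 CPM in GWI, with a median of 81.0. Every GWI mouse lay above every Control mouse. The log2 fold change was 0.74 (SE 0.14, adjusted p = 0.00222), and the adjusted p ran from 6.12e-06 to 0.00959 over the alternatives. Exons of D330041H03Rik overlap Abca3 on the other strand, and reads of the overlap could not be separated if strand was not used in counting. The same holds for the called members Abcb1a (Gm42686), Abca8b (Gm11697), Abcb9 (Gm34086) and Abcb10 (Gm45890).

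Abca12 carries glucosylceramides in skin and other epithelia, and Abca7 moves phospholipids in phagocytes and brain. Abca12 ran from 48.6 to 145 CPM in Control, with a median of 77.9, and from 62.9 to 191 CPM in GWI, with a median of 128 (log2 fold change 0.71, SE 0.23, adjusted p = 0.0303). Abca7 ran from 25.9 to 87.7 CPM in Control, with a median of 48.8, and from 57.8 to 91.1 CPM in GWI, with a median of 74.2 (log2 fold change 0.53, SE 0.18, adjusted p = 0.0398). The groups overlapped for both. Abca12 was no longer called without any 1 of 6 mice (adjusted p up to 0.0670 without GWI replicate 6), and Abca7 without any 1 of 10 (up to 0.0703 without GWI replicate 4). With the muscle against epithelium score Abca12 was at 0.26 (adjusted p = 0.533) and Abca7 at 0.89 (adjusted p = 0.0151). With upper-quartile factors Abca12 kept its call and Abca7 lost it (adjusted p = 0.0743). Over the alternatives the adjusted p ran from 0.000819 to 0.533 for Abca12 and from 0.00232 to 0.112 for Abca7.

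The 3 lower members of this group, Abca8a, Abca8b and Abca6, are neighbours. They lie with Abca9 and Abca5 in a run of related genes on chromosome 11 that spans 109932190 to 110337716, all on the minus strand, and less is known of what they carry. Abca8a ran from 12.5 to 27.8 CPM in Control, with a median of 20.7, and from 7.57 to 18.0 CPM in GWI, with a median of 11.3 (log2 fold change -0.79, SE 0.19, adjusted p = 0.00781). Abca8b ran from 8.41 to 14.6 CPM in Control, with a median of 11.6, and from 4.36 to 11.9 CPM in GWI, with a median of 6.72 (log2 fold change -0.73, SE 0.19, adjusted p = 0.0108). In 7 of 8 GWI mice Abca8b was below every Control mouse, GWI replicate 8 being the exception. Abca6 ran from 0.934 to 2.88 CPM in Control, with a median of 1.93, and from 0.483 to 1.90 CPM in GWI, with a median of 0.732 (log2 fold change -0.95, SE 0.32, adjusted p = 0.0345). The Abca6 groups overlapped, and its call was lost without any 1 of 8 mice, with adjusted p up to 0.0692 without GWI replicate 3. Abca9 and Abca5 had log2 fold changes of -0.36 (adjusted p = 0.442) and -0.41 (adjusted p = 0.108), so all 5 neighbours had a negative value in this fit. Abca9 turned to 0.71 with the muscle against epithelium score (adjusted p = 0.135) and Abca5 to 0.01 (adjusted p = 0.969), and Abca6 was at -0.21 (adjusted p = 0.705). Abca5 was called without GWI replicate 5 (-0.53, adjusted p = 0.0405). Abca8a and Abca8b share 105 windows of 50 bases and 0 of 150 bases, so few 150-base reads can fit both.

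Abca8a was set against fibroblast markers, and the other genes of the run were not. Of 5 markers, 2 (Dcn and Dpt) were lower in GWI and 0 higher, Col1a1 having a positive log2 fold change (0.27, adjusted p = 0.578), with a summed level of 221 to 628 CPM in Control and 193 to 475 CPM in GWI, Dpt being the most abundant and none at 0. Abca8a and the fibroblast sum had a Pearson r of 0.928 in Control (exact permutation p = 0.000110, adjusted 0.000397) and 0.742 in GWI (exact permutation p = 0.0416, adjusted 0.0475). Spearman's rho was 0.917 in Control (exact permutation p = 0.00131, adjusted 0.00525) and 0.786 in GWI (exact permutation p = 0.0279, adjusted 0.0372). Without the 2 mice farthest from the median, r was 0.855 and 0.644. With the muscle against epithelium score in the fit, the log2 fold changes were -0.18 for Abca8a (adjusted p = 0.469) and -0.25 for Abca8b (adjusted p = 0.344), the highest of their alternatives, and the lowest were 1.98e-05 and 1.65e-05. The part of the fibroblast markers in these results was not tested.

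The 2 sulfonylurea receptors are subunits of potassium channels that close when ATP is high and do not pump. Abcc9 (SUR2), the form of smooth and heart muscle, ran from 17.2 to 171 CPM in Control, with a median of 62.3, and from 22.4 to 59.1 CPM in GWI, with a median of 30.9. Control mice were widely spread, from Control replicate 8 at 17.2 to Control replicate 6 at 171 CPM, and enclosed all GWI mice. Abcc9 fell by 0.95 on the log2 scale (SE 0.34, adjusted p = 0.0459), and the call was lost without any 1 of 11 mice, with adjusted p up to 0.104 without Control replicate 6. Its level followed the smooth muscle markers, with a Pearson r of 0.829 in Control (exact permutation p = 0.00490, adjusted 0.00784) and 0.918 in GWI (exact permutation p = 0.00456, adjusted 0.00784). Spearman's rho was 0.767 in Control (exact permutation p = 0.0214, adjusted 0.0348) and 0.690 in GWI (exact permutation p = 0.0694, adjusted 0.0760). Without the 2 mice farthest from the median muscle sum, r was 0.824 in Control and 0.499 in GWI, so the GWI relation rests on GWI replicates 5 and 8. With the muscle against epithelium score in the fit, the log2 fold change was 0.15 (adjusted p = 0.748), where the other alternatives went as low as 0.00466. Abcc8 (SUR1), the form of endocrine cells and neurons, had a log2 fold change of 0.41 (SE 0.20, adjusted p = 0.128). Exons of 5330439B14Rik overlap Abcc9 on the other strand.

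Inside the cell, peroxisomal and lysosomal members had positive values. Of 5 tested, 3 were higher and 0 lower, beside 13.4% and 13.5% of all tested genes. With upper-quartile factors 1 was higher and 0 lower, beside 8.58% and 21.2% of all genes. All 5 had a positive log2 fold change, with a median of 0.33. Abcd3 (PMP70), which takes long branched fatty acids and bile acid precursors into peroxisomes, had the smallest p of the family. It ran from 236 to 320 CPM in Control, with a median of 269, and from 310 to 549 CPM in GWI, with a median of 430. In 7 of 8 GWI mice it was above every Control mouse, and GWI replicate 5 lay just below the highest Control mouse. The log2 fold change was 0.64 (SE 0.11, adjusted p = 0.00142), and the adjusted p stayed between 4.19e-06 and 0.0417 over the alternatives. Abcb9, a lysosomal peptide transporter, had a log2 fold change of 0.33 (adjusted p = 0.00977; 0.000439 to 0.0706 over the alternatives). Abcd4, which acts in lysosomal export of vitamin B12, had one of 0.32 (adjusted p = 0.0417), lost without any 1 of 11 mice, with adjusted p up to 0.0789 without GWI replicate 5, and it was 0.127 with upper-quartile factors.

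Abcd2, a peroxisomal fatty acid transporter found in fat, ran from 1.66 to 11.6 CPM in Control, with a median of 4.12, and from 2.06 to 29.5 CPM in GWI, with a median of 7.38. GWI replicate 7 was the highest, and the groups overlapped (log2 fold change 0.75, SE 0.50, adjusted p = 0.259). Without that mouse the log2 fold change was 0.27 (adjusted p = 0.687, the highest of the alternatives, the lowest being 0.116). The same mouse had the highest adipocyte marker sum, 570 CPM, where the range was 33.5 to 208 CPM in Control and 68.6 to 570 CPM in GWI. Of 5 adipocyte markers, 1 (Cidec) was higher and 0 lower, Fabp4 was the most abundant, and none was at 0. Their part in the Abcd2 level was not tested.

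Most mitochondrial members were not called. Of 4, 1 was higher and 0 lower, beside 13.4% and 13.5% of all tested genes, so the count was near the background. The median log2 fold change was 0.25. Abcb10, which acts in heme synthesis, ran from 26.1 to 37.2 CPM in Control, with a median of 32.1, and from 31.0 to 45.5 CPM in GWI, with a median of 39.4. In 6 of 8 GWI mice it was above every Control mouse. The log2 fold change was 0.29 (SE 0.09, adjusted p = 0.0230), and the call was lost without GWI replicate 4 (0.0522) or GWI replicate 6 (0.0506). It was also lost with upper-quartile factors and with the muscle against epithelium score, where the log2 fold change was again 0.29 (adjusted p up to 0.105). Abcb8, part of a mitochondrial potassium channel, had a log2 fold change of 0.21 (adjusted p = 0.124), and Abcb6, a porphyrin transporter, one of 0.33 (adjusted p = 0.191).

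The soluble ABC proteins of translation, which recycle ribosomes or act in initiation, showed no call without a covariate. By edgeR 0 of 4 passed, none had an unadjusted p under 0.05, and neither DESeq2 nor either form of limma-voom called any. Log2 fold changes were -0.26 for Abce1 (adjusted p = 0.205), 0.08 for Abcf1 (adjusted p = 0.596), 0.06 for Abcf2 and 0.04 for Abcf3, beside -0.06 for the median of all genes. The Abcf1 range in GWI was narrow, from 107 to 123 CPM, and in Control it ran from 61.5 to 128 CPM. With upper-quartile factors the values of Abcf1, Abcf2 and Abcf3 turned negative and were not called. The fit with the muscle against epithelium score called 2, Abcf1 at 0.39 (adjusted p = 0.0402) and Abce1 at -0.65 (adjusted p = 0.00580), the lowest of their alternatives, the highest being 0.964 and 0.733.

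A further 8 members were in no role list, 2 of them tested. Abcg3, a rodent gene with no known substrate, ran from 0.294 to 1.60 CPM in Control, with a median of 0.753, and from 0.215 to 0.793 CPM in GWI, with a median of 0.409. The groups overlapped at this low level (log2 fold change -0.89, SE 0.31, adjusted p = 0.0439), and the call rests on few counts. Of the 17 fits without 1 mouse, it was called in 3, lost in 7 (adjusted p up to 0.0868 without GWI replicate 3) and not tested in 7, where it did not pass the filter. Over the alternatives its adjusted p ran from 0.0230 to 0.364. Abcc6, whose loss leads to ectopic calcification, had a log2 fold change of 0.10 (adjusted p = 0.728). In the lipid group, Abca2 of myelin had a log2 fold change of -0.17 (adjusted p = 0.613). The 9 members that were not tested were Abca4, Abca13, Abca14, Abca15, Abca16, Abca17, Abcb5, Abcb11 and Abcc12, with between 1 and 112 counts over all 17 mice. The bile salt export pump Abcb11 had 22 counts in 7 mice.

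A further 3 ABC genes carry other symbols and were listed apart. Cftr, the chloride channel of crypts, had a log2 fold change of 0.21 (adjusted p = 0.399), and the peptide transporters Tap1 and Tap2 of antigen presentation had 0.06 (adjusted p = 0.812) and 0.28 (adjusted p = 0.260). By edgeR, 0 of 3 passed, 0 had an unadjusted p under 0.05, DESeq2 called 0, and limma-voom with sample quality weights called Cftr.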

How the data were processed

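The authors deposited raw counts per gene for 17 colon libraries, 1 per mouse. Per the submitters' processing notes and the study's methods, reads were trimmed with Trimmomatic 0.36 and aligned to GRCm38 with STAR 2.5.2b, and unique hits were counted with featureCounts. The annotation release and strand setting are not given in the sources used here. Labels share first parts that no source explains, and these were not modelled.

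Counts of all genes were tested in R 4.3.3 with edgeR 4.0.16: filterByExpr (minimum count 10), TMM, a robust quasi-likelihood fit with condition as the only term, and Benjamini-Hochberg adjustment over 14146 genes. A gene was called at an adjusted p under 0.05. Standard errors are the absolute log2 fold change divided by the root of F. The steps were tested on simulated data.

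All matching rows were counted, and results of some members are not reported here. Full values went to each called member with an absolute log2 fold change over 0.5 and to each tested efflux pump and sterol transporter; of the others, at least the 2 smallest p of each role list are given, and partner genes when called. The members and lists were chosen with earlier results of these data known. Gene spans and exon lengths are from GENCODE M21.

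Alternatives were other scaling (DESeq2 size factors, upper quartile, library size alone), DESeq2 1.42.0 (Wald test), limma-voom (limma 3.58.1) with sample quality weights, no robust estimation, other low count filters, a replicate block, a muscle against epithelium score as covariate, the methods' threshold (unadjusted p under 0.05 and absolute log2 fold change over 1), and mice left out. Limma-voom without weights and the fit without Control replicates 6 and 7 were added after the data were seen. The highest correlation of log2 CPM between 2 mice was 0.992, and no library was counted as a duplicate.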

Additional observations from a re-analysis of the deposited data

Results flagged for a closer look

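In 6 of 78 groups examined (39 tested members in each condition, log2 CPM), the extreme mouse stood farther from its nearest neighbour than Dixon's 95% limit allows. Chance flags about 1 in 20 such groups. All 6 concern Control replicate 9. It was low for Abca3 at 22.8 CPM (next Control mouse 36.7), for Abcb8 at 25.2 CPM (34.4), for Abcc8 at 2.02 CPM (4.03), for Abcf1 at 61.5 CPM (100.1), for Abcf2 at 18.7 CPM (29.7) and for Abcf3 at 30.8 CPM (41.0). In this mouse the 10 most abundant genes took 23.1% of all counts, against 9.72% to 17.3% in the other Control mice, and its smooth muscle sum was the lowest of the Control mice, 3690 CPM. The part of these in the members' values was not tested. Without Control replicate 9, 13 members were called higher and 5 lower.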

How the results depend on the processing

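Of the 18 called members, 8 were called without each mouse in turn, and 2, Abca3 and Abcd3, in every alternative fit at an adjusted p under 0.05. Members called higher numbered 12. They numbered 5 with upper-quartile factors, 7 with library size alone and 19 with limma-voom and sample quality weights. At an unadjusted p under 0.05 with an absolute log2 fold change over 1 there was 1, Abcg8, which was not among the 12. Abca3 (0.74) and Abcd3 (0.64) did not reach that log2 fold change. Leaving out 1 mouse gave 7 to 13. Members called lower numbered 6. They numbered 3 with the replicate block, 2 with the muscle against epithelium score, 3 without Control replicates 6 and 7, and 0 at the unadjusted threshold. Leaving out 1 mouse gave 3 to 6. Of all genes, 3792 were called, 2241 with the replicate block, 8091 with limma-voom and sample quality weights, 342 at the unadjusted threshold, and 2781 to 4818 with 1 mouse left out. The weights ran from 0.117 (Control replicate 9) to 3.33 (Control replicate 5), and without weights limma-voom called 3735. With the score in the fit, 8 of 41 members turned sign: Abca2 to 0.77 (adjusted p = 0.0231) and Abcc9 to 0.15 (adjusted p = 0.748), from -0.17 and -0.95, and, called neither with nor without it, Abca5, Abca9, Abcc4, Abcc6, Abcg2 and Abcg4. The cause of these shifts was not tested.

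The replicate block changed the counts as above. Same-numbered mice had correlations of their deviations from -0.51 to 0.11, 1 of 8 pairs was over 0.1, and 0 correlated best with its own number. No pairing by number was thus seen, though a check on so few pairs cannot exclude one. Control replicate 9 has no GWI mouse of its number, so the block also takes it out of the comparison. Members near 1 CPM, such as Abcg3, Abca6 and Abcb4, rest on few counts, and the 9 members that did not pass the filter are given as counts only.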
